A study of Rattus norvegicus with 32 samples.

Results

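Heat shock proteins and chaperones were followed through 32 RNA-seq libraries of rat hippocampus taken at postnatal day 65. The 10 genes were Hsp90aa1, Hsp90ab1, Hspa8, Hspa1b, Hspa5, Hspb1, Hsph1, Dnajb1, Hspd1 and Hspe1, picked by symbol, and all 10 had a row among the 32883 entries of both deposited count tables. They had been picked with earlier results of these counts in view, so the tests below describe the genes and are not independent evidence about them. All rats were Sprague-Dawley. The 16 males, sequenced as batch I, and the 16 females, sequenced as batch II, each comprised 4 rats of 4 diet groups. Iron-sufficient rats without choline formed the IS control group, and iron-sufficient rats with prenatal choline formed ISch. Rats labelled ID, called formerly iron-deficient (FID) here since iron was restored early in life, received no choline, and those labelled IDch (FIDch here) were iron-deficient early in life and had prenatal choline. The diets were fed to the mothers. The paper's methods state that its experiments took only a single male per litter, and that its RNA-seq data came from an earlier study. How these 32 rats, the females among them, relate to litters is not given further in the sources used here.

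Chaperones bind unfolded or partly folded proteins and help them to fold, assemble, cross membranes or be degraded. HSP70 proteins (Hspa8, Hspa1b and Hspa5 here) take up client proteins in a cycle of ATP hydrolysis that J-domain proteins such as Dnajb1 start and that nucleotide exchange factors such as Hsph1 reset, while HSP90 proteins (Hsp90aa1 and Hsp90ab1) act on clients that are already near their folded form, many of them kinases and steroid receptors. When unfolded proteins build up in the cytosol, heat shock factor 1 binds heat shock elements in the promoters of the inducible genes. Unfolded proteins in the endoplasmic reticulum act through separate sensors and elements, and Hspa5 (BiP) is the best known target there. Neurons express the constitutive forms Hsp90ab1 and Hspa8 abundantly, and the inducible HSP70 gene Hspa1b is usually low at rest.

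The promoters show which of the members searched carry these elements. Hsp90aa1 and Hspa1b could not be searched, as no promoter sequence of theirs was at hand. RefSeq sequences of the 250 bases before the start of the gene, on assembly GRCr8, were at hand for 8 of the 10 members. They were searched on both strands for the heat shock element of 3 units (GAANNTTCNNGAA, and its reverse complement TTCNNGAANNTTC), for its 2-unit part (GAANNTTC or TTCNNGAA, which the 3-unit form contains), and for the endoplasmic reticulum stress response element (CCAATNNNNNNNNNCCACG, reverse complement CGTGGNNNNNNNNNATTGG). A 3-unit match was found in 4 members, Hspa8, Hsph1, Hspd1 and Hspe1, against 0.663% of all 33469 promoters of that length. A 2-unit match was found in 6 members, against 13.5% of all promoters, and the stress response element in 1, Hspa5, against 0.0657%. Such matches describe the sequence and do not show that a factor is bound. The sequences below run 5′ to 3′ on the strand of the gene and end at the base before its start. Capitals mark the 3-unit matches of Hspa8, Hsph1 and Hspe1, the 2-unit match of Dnajb1, and the stress response element of Hspa5.
Hspa8 (chr8:50080264-50080513, plus strand): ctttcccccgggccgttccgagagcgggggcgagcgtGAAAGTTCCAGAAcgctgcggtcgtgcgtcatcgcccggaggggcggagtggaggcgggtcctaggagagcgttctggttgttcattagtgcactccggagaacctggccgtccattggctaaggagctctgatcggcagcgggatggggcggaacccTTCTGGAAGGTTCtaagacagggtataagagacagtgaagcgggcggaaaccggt
Hsph1 (chr12:10427118-10427367, plus strand): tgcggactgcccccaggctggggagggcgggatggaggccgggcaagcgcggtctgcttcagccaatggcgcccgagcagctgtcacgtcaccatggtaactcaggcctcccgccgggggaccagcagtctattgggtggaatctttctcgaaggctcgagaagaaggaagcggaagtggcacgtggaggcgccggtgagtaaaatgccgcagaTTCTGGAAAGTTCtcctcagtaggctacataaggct
Hspe1 (chr9:64084077-64084326, plus strand): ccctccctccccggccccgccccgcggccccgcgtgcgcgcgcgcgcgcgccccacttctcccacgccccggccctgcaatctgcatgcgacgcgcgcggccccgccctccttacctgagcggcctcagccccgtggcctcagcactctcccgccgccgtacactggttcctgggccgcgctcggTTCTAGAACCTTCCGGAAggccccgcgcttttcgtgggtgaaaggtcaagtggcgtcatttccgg
Dnajb1 (chr19:41431142-41431391, minus strand): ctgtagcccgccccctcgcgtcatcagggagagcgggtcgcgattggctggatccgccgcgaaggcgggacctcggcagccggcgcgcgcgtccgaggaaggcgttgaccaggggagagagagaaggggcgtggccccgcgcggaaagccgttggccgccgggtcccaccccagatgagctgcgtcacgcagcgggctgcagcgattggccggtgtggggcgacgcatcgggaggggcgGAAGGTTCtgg
Hspa5 (chr3:38452766-38453015, plus strand): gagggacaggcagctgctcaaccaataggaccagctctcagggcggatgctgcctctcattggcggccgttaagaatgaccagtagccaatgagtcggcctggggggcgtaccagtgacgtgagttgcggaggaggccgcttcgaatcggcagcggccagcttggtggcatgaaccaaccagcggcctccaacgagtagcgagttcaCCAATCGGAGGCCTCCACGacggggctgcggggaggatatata

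Hspa8 had 3-unit matches 213 and 55 bases upstream of its start, Hsph1 had 1 at 36 bases, and the 2-unit match of Dnajb1 lay 11 bases upstream. Hspd1 and Hspe1, which encode the mitochondrial chaperonin HSP60 and its lid HSP10, are transcribed away from each other, and their windows of 250 bases shared 211 bases. The heat shock elements of Hspe1, 65 and 60 bases upstream of its start, therefore also stood in the window of Hspd1, 242 and 237 bases upstream. Hspa5 held its stress response element 43 bases upstream and no heat shock element of either form in this window.

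The libraries held 3515806 to 9517503 counts in the males and 18439999 to 26616318 in the females. Levels are given as CPM, the read count relative to the library's total after scaling by TMM factors. CPM does not correct for transcript length, so the levels of different genes were not compared with each other. Replicates of a group differed by 2.02 to 25.2 in chi-square per gene over 48 pairs, more than counting noise gives, so the 4 rats of each group were counted as 4 samples. Summed markers of hippocampal neurons reached 4990 to 5650 CPM in the males and 5007 to 5982 CPM in the females. Markers of the choroid plexus, a tissue that lies against the hippocampus, summed to 6.94 to 400 CPM in the FID males. In the IS, ISch and FIDch males they summed to 3.02 to 6.77 CPM. The highest sum was that of male FID replicate 4, with Ttr at 350 CPM. Ttr did not exceed 14.5 CPM in any other library. In means over the FID males, 6 of the 7 markers were at 1 CPM or more.

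**Figure D1:**
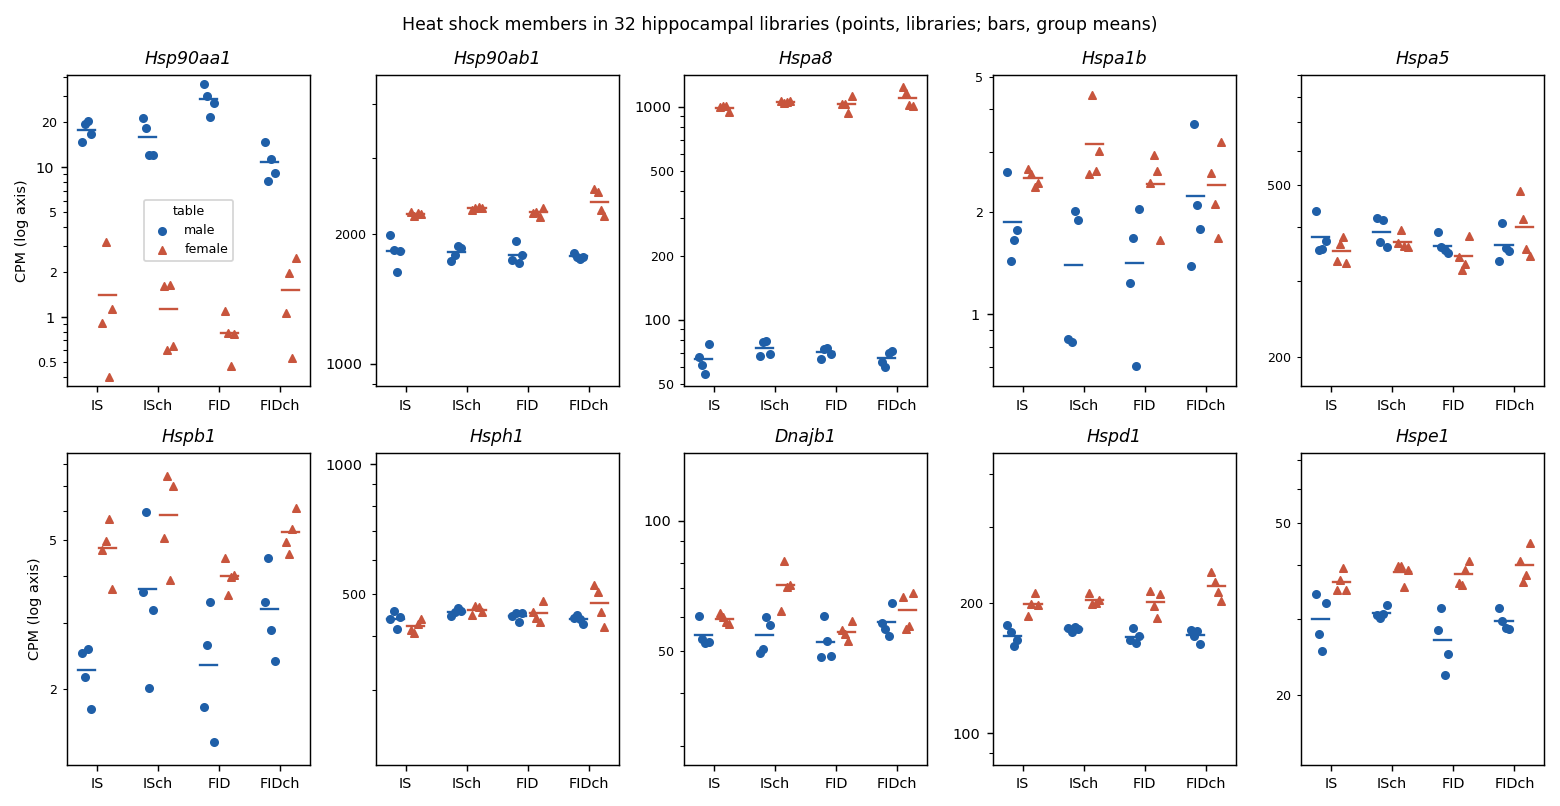
CPM of the 10 members (vertical log axis, a scale of its own in each panel) in the 4 diet groups, with a point for each library (blue circles, male; red triangles, female) and a bar for each group mean (n = 4). Hsp90aa1 is far lower and Hspa8 far higher in the female table, and the 8 other members differ by less than 2-fold between the tables.

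Hsp90aa1 and Hspa8 were counted very differently in the tables of the 2 sexes. Over the 16 libraries of each table, the median of Hsp90aa1 was 17.5 CPM in males and 0.986 CPM in females, 17.8-fold higher in the male table. Hspa8 had a median of 68.9 CPM in males and 1031 CPM in females, 14.9-fold higher in the female table. Among the other 8 members the female median was at most 1.86 times the male median and in no gene below it. Of 10073 entries with a median of at least 10 CPM in either table, 13 were at least 8-fold higher in the female table and 152 at least 8-fold higher in the male table. Sex, sequencing batch and any difference in how the tables were counted cannot be told apart. Pairs of diet groups were therefore compared only within a table. The tests of a difference in effect between the sexes, given below, used both tables and carry this limit.

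Reads of both genes can be shared with near-identical copies. RefSeq lists 16 pseudogenes of Hsp90aa1 and 33 of Hspa8, of which 1 and 2, respectively, had entries in the count tables. The Hsp90aa1 copy with an entry, listed as LOC680491, was at 24.8 to 50.4 CPM in males and 24.0 to 38.9 CPM in females. For Hspa8, the copy LOC688655 was at 22.2 to 34.8 CPM in males and 7.21 to 9.96 CPM in females. RefSeq also lists 23 pseudogenes of Hsp90ab1, 20 of Hspd1 and 1 of Hspe1, and 0 of those had an entry. Hsp90aa1 overlaps LOC102549239, and Hspa8 overlaps LOC120094548 and Snord14a. The levels of Hsp90aa1, Hsp90ab1, Hspa8 and Hspd1 are therefore uncertain in absolute terms. Hspa1b has a near-identical neighbour, Hspa1a, which has no row of its own in the tables, and the same holds for its level. RefSeq lists Hspd1 and Hspe1 as overlapping genes, although the starts used for their promoter windows lie apart. With an unstranded kit the reads from any overlap cannot be assigned to either.

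Calls across genes followed the criterion of the study's RNA-seq analysis, an absolute log2 fold change over 0.2 with an unadjusted p under 0.05, by edgeR's quasi-likelihood test on each pair of groups. The p-values adjusted over all tested genes (Benjamini-Hochberg) are given beside it. In males, 1 of the 10 members met the criterion in each of the 4 comparisons. Over all genes tested, the criterion was met by 4.62% in FID vs. IS, 6.12% in FIDch vs. IS, 8.06% in ISch vs. IS and 13% in FIDch vs. FID. A share of 1 in 10 is close to these. Since tissue was measured in bulk, fewer cells of a type and less RNA per cell cannot be told apart in any difference below.

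**Figure D2:**
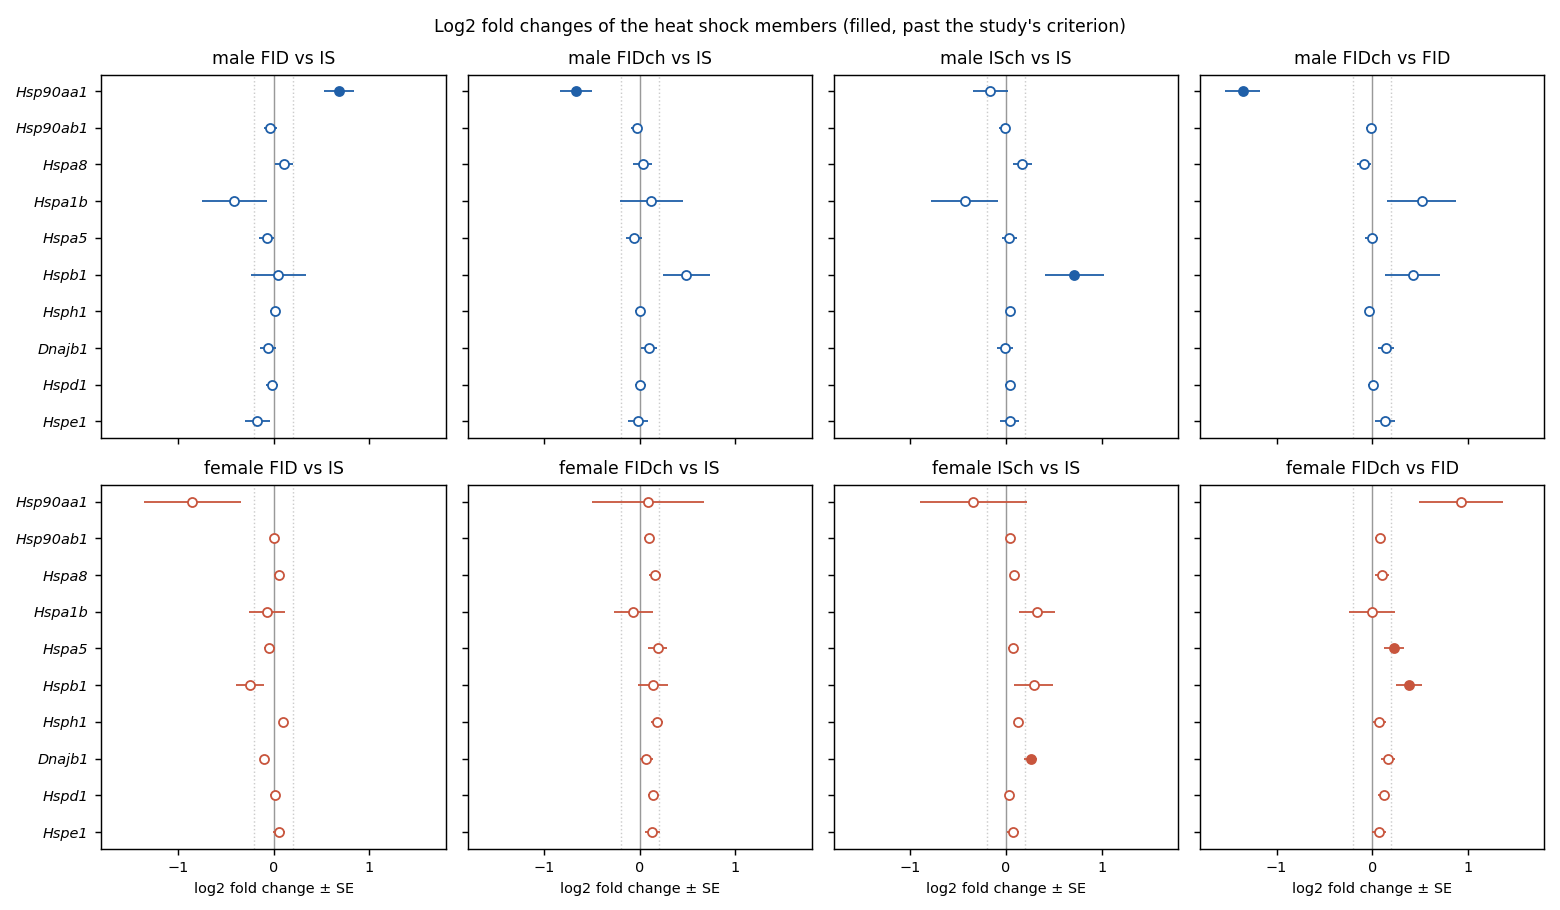
Log2 fold change ± SE (horizontal axis) of each of the 10 members in the 4 comparisons of males (top) and females (bottom), with n = 4 rats per group. Filled points met the criterion and dotted lines mark a log2 fold change of 0.2 in either direction. In males Hsp90aa1 was higher in FID and lower in FIDch, and most other members lie within 0.2 of 0.

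In males, Hsp90aa1 (ENSRNOG00000007219), the stress-inducible cytosolic HSP90, was highest in FID and lowest in FIDch. In the IS control group its level was 14.7, 19.5, 20.3 and 16.8 CPM in replicates 1 to 4. In FID it was 36.4, 29.8, 21.7 and 26.9 CPM. All 4 FID males lay above the other 12 males, a pattern met by 0.168% of the genes tested (24 of 14314). In FIDch it was 14.8, 8.11, 11.4 and 9.18 CPM, of which only replicate 1 reached the range of IS. In ISch it was 21.3, 18.3, 12.2 and 12.2 CPM, a range that contains the values of IS.

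Compared to IS, Hsp90aa1 was 1.60-fold higher in FID males, with a log2 fold change of 0.68 (SE 0.16, edgeR adjusted p = 0.786). It was 1.59-fold lower in FIDch males than in IS (log2 fold change −0.67, SE 0.17, edgeR adjusted p = 0.262). Both met the study's criterion and neither held after adjustment over all genes. Between the formerly iron-deficient groups, Hsp90aa1 was 2.56-fold lower in FIDch than in FID (log2 fold change −1.35, SE 0.18, edgeR adjusted p = 0.00736), and the groups did not overlap. For this pair of groups, 1.28% of the genes tested passed the adjusted p at 0.05, and 10.6% had no overlap. Hsp90aa1 was the only member to do either. The shallowest male library, FIDch replicate 2, gave 29 counts for Hsp90aa1, and without it FIDch differed from FID by −1.28. ISch and IS differed by −0.16 (SE 0.18, edgeR adjusted p = 0.768). The names of ISch replicates 1 and 2 have a form that, among the males, only FIDch replicate 2 shares. Without both of these ISch libraries the difference between ISch and IS was −0.56 (SE 0.16, edgeR adjusted p = 0.733) and met the criterion. With any single library left out it was −0.33 to −0.048 and did not. The FID groups enter more than 1 of these comparisons, as do the IS libraries, so the values are not independent of each other. Without male FID replicate 4, the library with the most choroid plexus markers, the log2 fold change was 0.71 against IS. The order of the groups stayed as it was. The other 3 FID values were 21.7 CPM or more, and the highest value outside FID was 21.3 CPM. All FID males had higher sums of choroid plexus markers than any male of the other groups. The part of this in the Hsp90aa1 difference was not tested. In the test over the 4 male groups, Hsp90aa1 had an edgeR adjusted p of 0.00668, and the other 9 members had adjusted p-values of at least 0.418. An adjusted p under 0.05 in this test was reached by 0.748% of all genes.

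**Figure D3:**
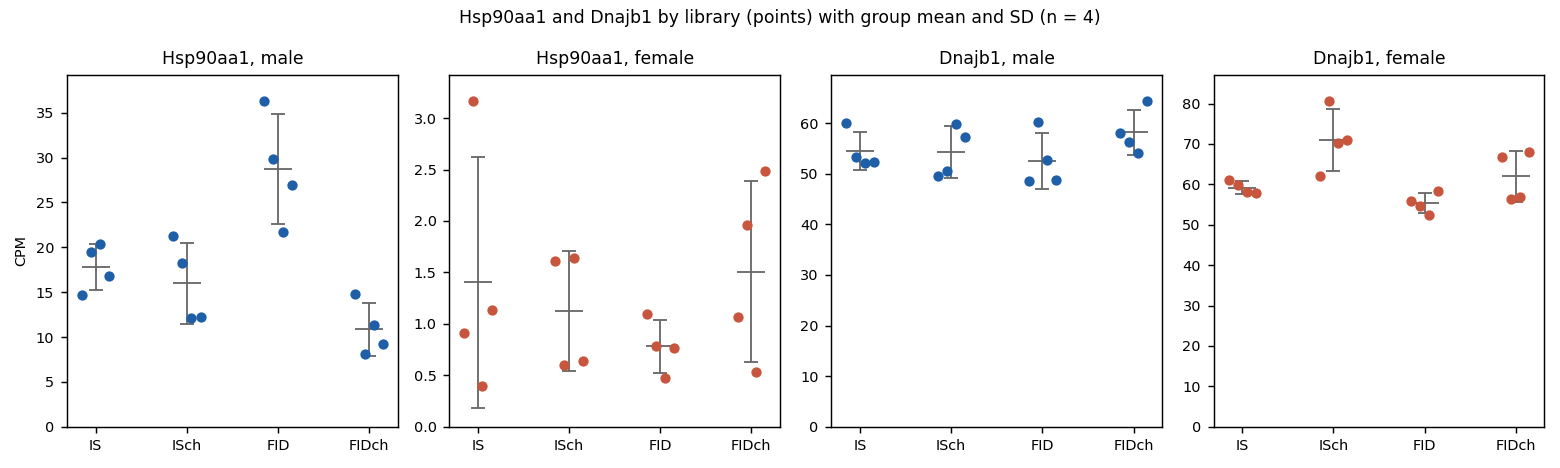
CPM of Hsp90aa1 and Dnajb1 in each library (points) by diet group, with the mean and SD of 4 rats (horizontal and vertical bars), each axis starting at 0. The 4 male FID libraries have the highest Hsp90aa1 values of all males, and the 4 female ISch libraries have Dnajb1 values above those of IS.

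The copy LOC680491 (ENSRNOG00000062084) followed the same order of groups in males. The mean was 42.4 ± 5.35 CPM for FID, 37.7 ± 1.19 for IS, 30.7 ± 3.13 for ISch and 27.1 ± 2.31 for FIDch (± SD, n = 4 each). It was lower in FIDch than in FID (log2 fold change −0.66, SE 0.10, edgeR adjusted p = 0.0106) and lower in FIDch than in IS (−0.48, SE 0.087, edgeR adjusted p = 0.0603). Its difference between ISch and IS, −0.31 (SE 0.085, edgeR adjusted p = 0.314), also met the criterion. With the counts of Hsp90aa1 and LOC680491 summed as 1 gene, an alternative added after seeing the data, the male groups did not overlap: 34.7 to 40.2 CPM in FIDch, 42.8 to 52.0 in ISch, 52.9 to 57.1 in IS and 60.7 to 80.2 in FID. The share of all genes whose 4 male groups separate in this way was not counted. The summed difference between FIDch and FID was −0.91 (SE 0.093, edgeR adjusted p = 0.00160), and that between FIDch and IS was −0.54 (SE 0.075, edgeR adjusted p = 0.0162). Between FID and IS it was 0.35 (SE 0.091, edgeR adjusted p = 0.786), and between ISch and IS −0.26 (SE 0.076, edgeR adjusted p = 0.334). All 4 met the criterion, whereas Hsp90aa1 alone did not in ISch vs. IS. How reads were divided between the gene and its copy was not tested.

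In females Hsp90aa1 was near the limit of what could be counted, at 9 to 82 counts per library. Its level was 0.910, 3.17, 0.395 and 1.14 CPM in IS and 1.61, 0.598, 1.64 and 0.642 CPM in ISch. In FID it was 1.10, 0.785, 0.473 and 0.767 CPM, and in FIDch 1.06, 1.96, 0.531 and 2.48 CPM. All groups overlapped, and IS replicate 2 alone was above the rest. FID differed from IS by −0.85 (SE 0.51, edgeR adjusted p = 0.571) and FIDch from FID by 0.93 (SE 0.44, edgeR adjusted p = 0.295), on the log2 scale. Neither met the criterion. With a library left out, FID vs. IS was −1.15 to −0.043 and met the criterion without IS replicate 3 (−1.15). FIDch vs. FID was 0.60 to 1.21 and met it without FID replicate 1 (1.14), FIDch replicate 1 (1.07) or FIDch replicate 3 (1.21), and also with DESeq2 (0.94), with all genes of at least 1 count (0.93) and with the replicate block (0.85). Summed with LOC680491, the females had means from 28.7 CPM (IS) to 33.7 CPM (FIDch), and none of the 4 comparisons met the criterion.

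The effect of FID on Hsp90aa1 differed between the male and female tables at the criterion, by −1.56 on the log2 scale (female minus male, SE 0.53, edgeR adjusted p = 0.451), which does not hold over all genes. Sex, batch and counting cannot be told apart in this difference. Hsp90aa1 was the only 1 of the 10 members to meet the criterion, which 7.64% of all genes met. Without female IS replicate 2 the difference was −0.73 and no longer met it. For the effect of FIDch 0 members met the criterion, against 12.9% of all genes. Of these, Hsph1 had an unadjusted edgeR p of 0.0366 with a difference of 0.18, below the fold limit. For the effect of ISch 1 member met it, Dnajb1, against 14.2% of all genes.

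Dnajb1, the J-domain partner that hands clients to cytosolic HSP70, was higher in ISch than in IS females. Its level was 61.1, 59.8, 58.1 and 57.8 CPM in IS and 61.9, 80.7, 70.2 and 70.9 CPM in ISch. The 4 ISch values lay above the 4 IS values, replicate 1 by the least. In FID it was 56.0, 54.6, 52.5 and 58.5 CPM, and in FIDch 66.7, 56.3, 56.9 and 68.1 CPM. The log2 fold change between ISch and IS was 0.26 (SE 0.069, edgeR adjusted p = 0.0855). Without ISch replicate 2 it was 0.19 and did not meet the criterion. In the test over the 4 female groups Dnajb1 was the only member with an adjusted p under 0.05 (edgeR adjusted p = 0.0333), a threshold passed by 5.34% of all genes. That call was lost when any of 10 libraries was left out: IS replicates 1, 2 and 4, ISch replicates 2, 3 and 4, or any FID replicate. The adjusted p was then 0.0503 to 0.107. With the replicate number as a block, the edgeR adjusted p was 0.0624.

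In males, Dnajb1 was at 60.04, 53.2, 52.1 and 52.4 CPM in IS and at 49.5, 50.6, 59.8 and 57.3 CPM in ISch, so the groups overlapped. The log2 fold change was −0.012 (SE 0.081, edgeR adjusted p = 0.972). The difference between the male and female tables in the effect of ISch was 0.27 (female minus male, SE 0.11, edgeR adjusted p = 0.242), where sex and batch cannot be told apart. Without male IS replicate 1 it was 0.22, without male ISch replicate 1 0.23, without male ISch replicate 2 0.23 and without female ISch replicate 2 0.20, and in none of these was the criterion met.

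Several other members were slightly higher in ISch than in IS females. In this comparison 1 of the 10 members, Dnajb1, met the criterion (10.3% of all genes) and 0 passed the adjusted p (2.54% of all genes). The values of 4 members in ISch lay above all those in IS, namely Dnajb1, Hsph1, Hspa8 and Hsp90ab1, where 10.1% of all genes did not overlap in either direction. Hsph1, the HSP110 exchange factor of HSP70, was at 413, 407, 427 and 438 CPM in IS and at 448, 469, 466 and 454 CPM in ISch (log2 fold change 0.12, SE 0.038, edgeR adjusted p = 0.136). Hspa8, the constitutive cytosolic HSP70, was at 994, 1007, 1010 and 944 CPM in IS and at 1067, 1036, 1047 and 1061 CPM in ISch. Its log2 fold change was 0.09 (SE 0.035, edgeR adjusted p = 0.240). Hsp90ab1, the constitutive cytosolic HSP90, differed by 0.04 (SE 0.029, edgeR adjusted p = 0.571). These differences were under the fold limit of the criterion. Of the 10 members 9 had a log2 fold change above 0, with a median of 0.08 against −0.0037 over all genes tested. The same count of 9 was found in FIDch vs. IS (median 0.14) and FIDch vs. FID (median 0.11) of the females, comparisons that share libraries with each other. In the same libraries, 10 summed immediate early genes, which neuronal activity induces, were at 458 to 604 CPM in ISch and 386 to 439 CPM in IS. The 6 microglia markers summed to 182 to 206 CPM in ISch and 213 to 223 CPM in IS. Neither sum overlapped between the groups, and their part in the members' differences was not tested.

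In the other female comparisons few members met the criterion. In FID vs. IS it was 0 of 10 (6.47% of all genes), with Hsph1 at an unadjusted edgeR p of 0.0339 and a log2 fold change of 0.10. In FIDch vs. IS it was also 0 of 10 (8.98% of all genes, and 0.907% with an adjusted p under 0.05). There, Hsph1, Hspa8 and Hspd1 had unadjusted edgeR p-values of 0.0212, 0.0293 and 0.0335 with log2 fold changes of 0.18, 0.16 and 0.14. In FIDch vs. FID it was 2 of 10 (12.7% of all genes), and 0 passed the adjusted p (2.28% of all genes).

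The 2 members higher in FIDch than in FID females were Hspb1 and Hspa5. Hspb1 encodes the small heat shock protein HSP27, which holds unfolded proteins without ATP. It was at 4.47, 3.56, 4.00 and 4.03 CPM in FID and at 4.96, 4.59, 5.35 and 6.11 CPM in FIDch, and these groups did not overlap. The same was true of 11.9% of all genes tested in this comparison. The log2 fold change was 0.38 (SE 0.14, edgeR adjusted p = 0.168). Without FIDch replicate 4 it was 0.30 and did not meet the criterion. In IS, Hspb1 was at 4.70, 4.99, 5.71 and 3.70 CPM, a range that overlaps both groups.

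Hspa5, the HSP70 of the endoplasmic reticulum, was at 340, 318, 328 and 382 CPM in FID and at 484, 418, 356 and 343 CPM in FIDch, and these groups overlapped. The log2 fold change was 0.23 (SE 0.10, edgeR adjusted p = 0.266). It did not meet the criterion without FID replicate 1 (0.22), FID replicate 2 (0.20), FID replicate 3 (0.21), FIDch replicate 1 (0.12) or FIDch replicate 2 (0.21), nor with the replicate block (0.22).

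In males Hspb1 was the member called in ISch vs. IS. It was at 2.49, 2.15, 2.56 and 1.77 CPM in IS and at 3.63, 5.93, 2.01 and 3.26 CPM in ISch, on 12 to 50 counts per male library, and the groups overlapped through ISch replicate 3. The log2 fold change was 0.71 (SE 0.31, edgeR adjusted p = 0.463). The call was lost without IS replicate 2 (0.69), IS replicate 4 (0.62), ISch replicate 1 (0.72) or ISch replicate 2 (0.40). Without both of these ISch libraries, whose form of name male FIDch replicate 2 shares, the value was 0.23.

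Among the males, the coefficient of variation over all 16 libraries was 2.83% for Hsph1, 3.54% for Hspd1, 4.81% for Hsp90ab1, 8.07% for Hspa5, 8.64% for Dnajb1, 9.80% for Hspa8 and 10.8% for Hspe1. It was 39.5% for Hspb1, 41.9% for Hspa1b and 42.1% for Hsp90aa1, of which the first 2 rest on few counts. Hspa8 was at 55.8 to 79.4 CPM and Hspa5 at 334 to 436 CPM in males. The range of Hspd1 was 159 to 178 CPM and that of Hspe1 22.2 to 34.3 CPM. In no male comparison did Hsph1, Hspd1, Hsp90ab1, Hspa5, Hspa8 or Hspe1 meet the criterion. Hspa1b, an inducible cytosolic HSP70, was low in both tables, at 0.706 to 3.64 CPM (6 to 21 counts) in males and 1.65 to 4.41 CPM (38 to 81 counts) in females. Its log2 fold changes ranged from −0.43 (SE 0.35, male ISch vs. IS) to 0.52 (SE 0.36, male FIDch vs. FID) and none met the criterion.

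Covariation of members between rats of the same diet was weak over all pairs. For this, log2 CPM values were centred on the mean of each group, which leaves the variation among rats within groups, and correlated over the 16 rats of a sex. Over the 45 pairs the median r was 0.12 in males, with 29 pairs above 0, and 0.06 in females, with 25 pairs above 0. In females FIDch replicates 1 and 2 had the highest values of all 16 rats for 5 members, Hsp90ab1, Hspa8, Hspa5, Hsph1 and Hspd1. These 2 rats enter every female correlation below. The highest in females was that of Hsp90ab1 with Hsph1 (Pearson's r = 0.92, permutation p = 0.00148, adjusted p = 0.0666 over 45 pairs, Spearman's rho = 0.83, permutation p = 0.0103). Without the 2 rats farthest from the median of Hsp90ab1, FIDch replicates 1 and 4, r was 0.79, and FIDch replicate 2 stayed in. For Hspa8 and Hspa5 r was 0.85 (permutation p = 0.00634, adjusted p = 0.0670, rho = 0.76, permutation p = 0.0180). It was 0.84 without the 2 rats farthest from the median of Hspa8, FIDch replicate 1 and FID replicate 3.

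In males the highest was that of Hsp90ab1 with Hspd1 (r = 0.79, permutation p = 0.00164, adjusted p = 0.0738 over 45 pairs, rho = 0.72, permutation p = 0.00224). Without the 2 rats farthest from the median, r was 0.60. After adjustment 0 of 45 pairs passed in either sex, whereas 4 male and 11 female pairs had an unadjusted permutation p under 0.05. The tests were two-sided and permuted rats within groups. Hspd1 and Hspe1, which share a promoter region and are listed as overlapping, had r = 0.62 in males and 0.03 in females. Among the relations of Hsp90aa1 in males, the lowest r was that with Hspa1b (r = −0.55, permutation p = 0.0712, adjusted p = 0.351, rho = −0.50, permutation p = 0.105, and r = −0.41 without the 2 rats farthest from the median). That with Dnajb1 had r = −0.52 (permutation p = 0.0780, adjusted p = 0.351, rho = −0.55, permutation p = 0.0645, and r = −0.50 without such rats).

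**Figure D4:**
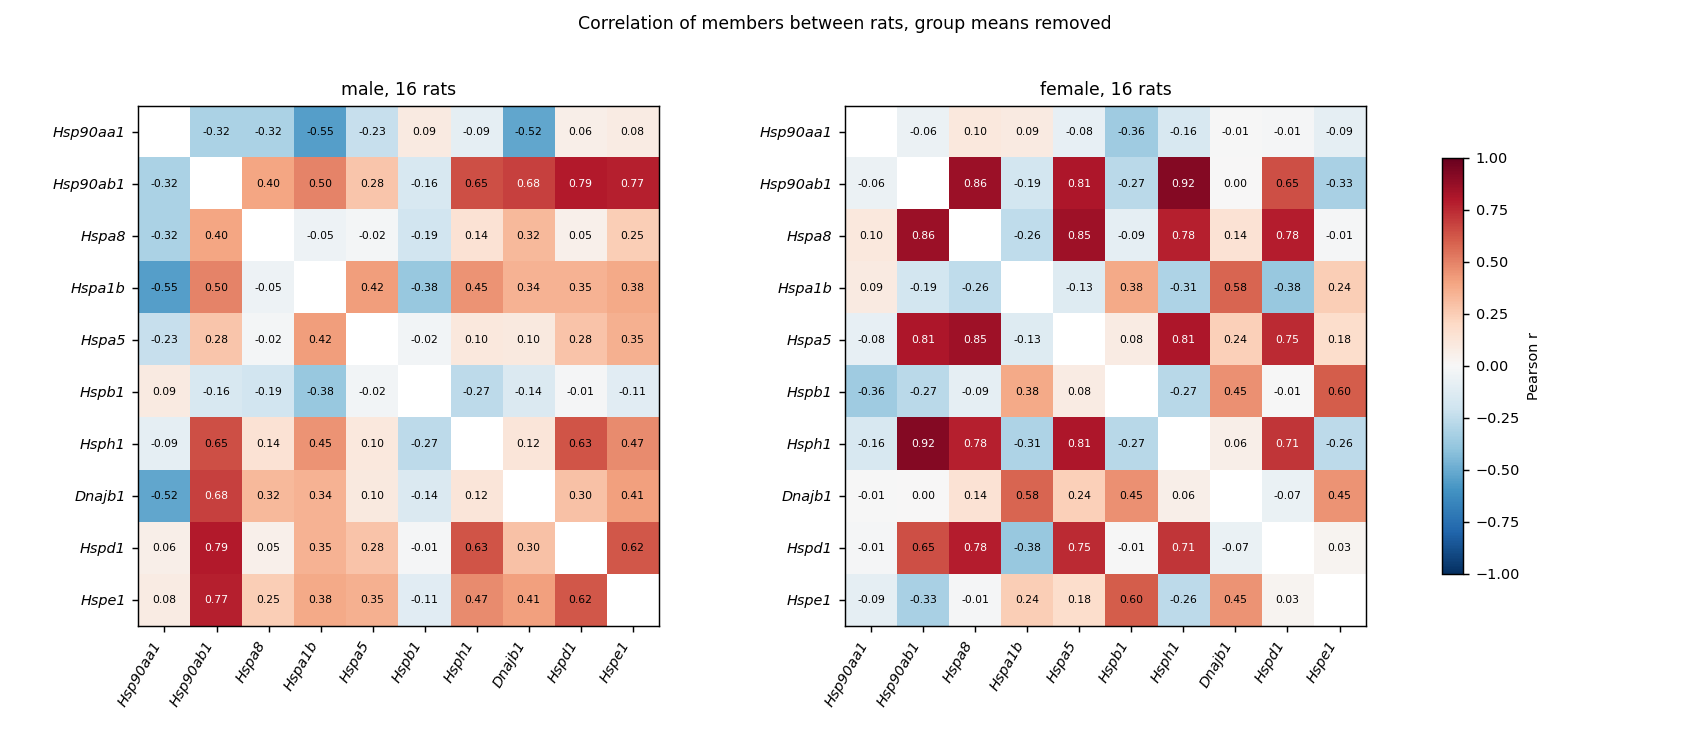
Pearson's r between members over the 16 male rats (left) and the 16 female rats (right), on log2 CPM with group means removed, from blue (−1) to red (1). The highest values are those of Hsp90ab1 with Hspd1 (0.79) in males and with Hsph1 (0.92) in females, and 0 of 45 pairs passed adjustment in either sex.

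Other genes were ranked by r with the mean of the standardized values of the inducible cytosolic members Hsp90aa1, Hspa1b, Hspb1, Hsph1 and Dnajb1. These members did not vary as a single profile. In males r between them ran from −0.55 (Hsp90aa1 with Hspa1b) to 0.45 (Hspa1b with Hsph1). In females it ran from −0.36 (Hsp90aa1 with Hspb1) to 0.58 (Hspa1b with Dnajb1). A high r with the mean is therefore not likeness to each member. Among 9334 other genes at 10 CPM or more in both tables, those with the highest r in whichever sex was lower were Pnrc1 (0.81 in males and 0.73 in females), Slc25a25 (0.69 and 0.87), Eif3g (0.68 and 0.66), Mrpl20 (0.67 and 0.66) and Slc25a33 (0.69 and 0.66). Each r is over 16 libraries that share their normalization, and these genes were selected as the highest.

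A wider set held 103 chaperones and co-chaperones in 10 lists. In FIDch vs. FID males 13 of 98 tested genes met the criterion (13.3%, against 13% of all genes), of which 9 were lower and 4 higher in FIDch. Of these, 2 passed the adjusted p. Tomm70, the mitochondrial import receptor that docks HSP90 and HSP70, was at 89.2, 92.8, 89.0 and 103 CPM in FID and at 68.1, 68.8, 75.0 and 73.2 CPM in FIDch (log2 fold change −0.40, SE 0.068, edgeR adjusted p = 0.0180). Hspa4l, an HSP110 relative of Hsph1, was at 166 to 176 CPM in FID and 141 to 150 CPM in FIDch (−0.26, SE 0.051, edgeR adjusted p = 0.0347). Neither gene overlapped between the groups, and both met the criterion under every alternative run. The adjusted p of Tomm70 was above 0.05 without FID replicate 4 (log2 fold change −0.34), FIDch replicate 1 (−0.36) or FIDch replicate 4 (−0.40) and with the replicate block (adjusted p = 0.108), and that of Hspa4l without any FID or FIDch library (−0.28 to −0.25) and with the block (adjusted p = 0.159).

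The list of cytosolic HSP90 co-chaperones had 4 of 14 lower in FIDch and 0 higher (28.6%, against 13% of all genes in either direction), with a median of −0.067 against −0.00033 over all genes, and Tomm70 and Chordc1 were among the 4 (Chordc1 −0.24, SE 0.074, edgeR adjusted p = 0.121, and −0.20 and no call without FID replicate 1). Tomm70, a mitochondrial receptor that docks HSP90, was placed in this list. Over the 10 lists the share called ran from 0% (such as TRiC chaperonin and prefoldin, 0 of 14) to 37.5% (HSP70 and HSP110 relatives, 3 of 8). The HSP70 and HSP110 relatives had 2 lower, Hspa4l and Hspa2 (−0.32, SE 0.13, edgeR adjusted p = 0.229), and 1 higher, Hspa12b (0.42, SE 0.14, edgeR adjusted p = 0.158). Hsf1, the heat shock factor itself, was at 34.8 to 42.3 CPM in FID and 40.5 to 52.0 CPM in FIDch (0.25, SE 0.095, edgeR adjusted p = 0.194), and without FIDch replicate 1 it was 0.19 and not called.

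Over the other male comparisons 3 or 4 of the 98 met the criterion, 3.06% in FID vs. IS and 4.08% in each of the others, below the shares of all genes given above, and 0 passed the adjusted p. In FID vs. IS the 3 were Dnajb14 (0.33), Tomm70 (0.24) and Atf6 (0.23), on the log2 scale. In FIDch vs. IS they were Hspb8 (−0.28), Cacybp (−0.24), St13 (−0.24) and Lonp1 (0.22), and in ISch vs. IS Dnajb14 (0.39), Atf6 (0.28), Grpel1 (−0.22) and Herpud1 (−0.21). Without male FID replicate 4, 0 of the listed genes met the criterion in FID vs. IS. Over the 4 male groups 0 of 99 of these genes passed the adjusted p (edgeR's quasi-likelihood test), with Tomm70 at an adjusted p of 0.0625.

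In females, Cryab, the alpha-crystallin B chain and a small heat shock protein like Hspb1, had the largest log2 fold change among the listed genes at the criterion. It was at 25.5, 25.01, 28.7 and 26.7 CPM in FID, at 38.7, 31.97, 33.4 and 33.4 CPM in IS and at 60.3, 39.8, 36.9 and 42.8 CPM in FIDch. FID lay below all 3 other groups without overlap, ISch being at 30.6 to 55.5 CPM. Over all genes, 6.56% had no overlap in either direction in FID vs. IS and 11.9% in FIDch vs. FID. The share with FID below all 3 other groups was not counted. Glia also express Cryab, and the 6 astrocyte markers summed to 3713 to 3984 CPM in FID, 3949 to 4145 in IS, 4009 to 4530 in ISch and 3976 to 4166 in FIDch. For the 6 oligodendrocyte markers the sums were 6836 to 7716 CPM in FID and 6852 to 8740 CPM in FIDch. They were 6327 to 7925 CPM in IS and 6132 to 8913 CPM in ISch, and all groups overlapped. The 6 microglia markers summed to 207 to 226 CPM in FID and 189 to 197 CPM in FIDch, without overlap, and the part of these shifts in the difference was not tested. The log2 fold change was 0.76 in FIDch vs. FID (SE 0.13, edgeR adjusted p = 0.0165) and −0.38 in FID vs. IS (SE 0.070, edgeR adjusted p = 0.0577). The first of these had an adjusted p above 0.05 without FID replicate 1 (0.75), 2 (0.74) or 4 (0.77), and both met the criterion under every alternative run. In males Cryab was at 20.8 to 25.9 CPM in FID and 22.6 to 31.9 CPM in FIDch. In FIDch vs. FID females 8 of 99 genes met the criterion (8.08%, against 12.7% of all genes), 6 of them higher, with Hspb8 (0.48, edgeR adjusted p = 0.0964), Bag2 (0.26, edgeR adjusted p = 0.142), Hspa14 (0.22, edgeR adjusted p = 0.0927) and Unc45a (0.21, edgeR adjusted p = 0.0641) among them and Tomm70 lower (−0.28, edgeR adjusted p = 0.102). The small heat shock protein list had 2 of 5 tested genes called, both higher, and a median of 0.39.

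**Figure D5:**
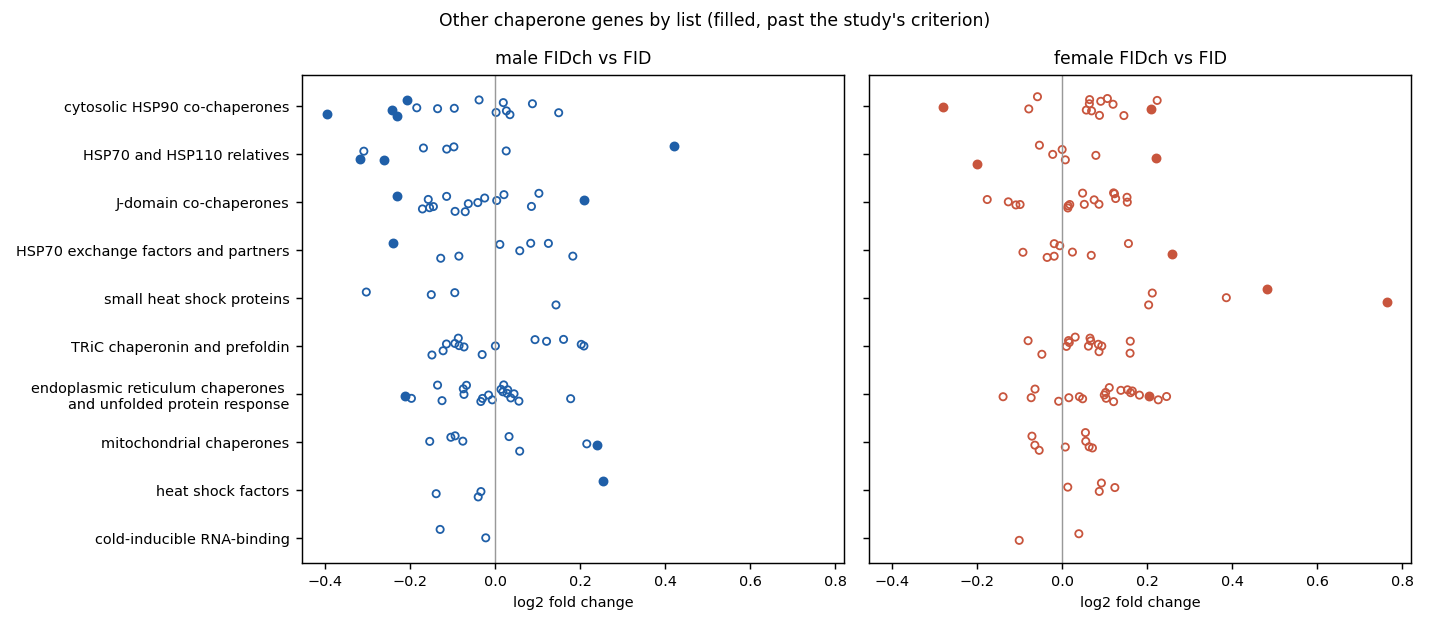
Log2 fold change in FIDch vs. FID (horizontal axis) of each tested gene of the 10 other chaperone lists (rows; vertical scatter within a row has no meaning), in males (left, 98 genes) and females (right, 99 genes), with filled points for genes at the criterion. Of 13 male calls 9 are below 0, with Tomm70 lowest at −0.40 and Hspa12b highest at 0.42, and of 8 female calls 6 are above 0, with Cryab highest at 0.76.

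Ddit3 (CHOP), a transcription factor induced when stress of the endoplasmic reticulum persists, was higher than IS in all 3 other female groups. It was at 16.6, 17.6, 17.4 and 16.6 CPM in IS and at 23.4, 25.1, 23.6 and 22.6 CPM in FIDch (log2 fold change 0.48, SE 0.062, edgeR adjusted p = 0.00837, or 0.0572 with the replicate block). It was at 19.4 to 21.7 CPM in FID (0.27, SE 0.066, edgeR adjusted p = 0.138) and 18.6 to 22.3 CPM in ISch (0.28, SE 0.077, edgeR adjusted p = 0.0938), and no value of these groups fell to the range of IS. Over all genes, 7.83% had no overlap in either direction in FIDch vs. IS, 6.56% in FID vs. IS and 10.1% in ISch vs. IS. In males it was at 20.9 to 34.3 CPM in IS and 24.1 to 27.4 CPM in FIDch, and these groups overlapped.

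In ISch vs. IS females 7 of 99 met the criterion (7.07%, against 10.3% of all genes), 4 higher and 3 lower, and 2 passed the adjusted p, as did 2.54% of all genes. Dnajb5, a J-domain protein, was at 184, 170.0, 183 and 190 CPM in IS and at 202, 238, 221 and 233 CPM in ISch (0.29, SE 0.056, edgeR adjusted p = 0.0240). Tomm70 was at 86.3 to 98.8 CPM in IS and 73.1 to 82.5 CPM in ISch (−0.25, SE 0.054, edgeR adjusted p = 0.0389). The adjusted p of Dnajb5 was above 0.05 without any IS library or ISch replicate 2 or 4 (0.26 to 0.32), that of Tomm70 without IS replicate 1, 2 or 4 or ISch replicate 2, 3 or 4 (−0.25 to −0.21), and with the replicate block they were 0.102 and 0.0980. Tomm70 was also above 0.05 with the 4 groups fitted together (adjusted p = 0.0795). The others named by the rule were Bag3 (0.37), Hspb6 (0.25), Ddit3 and the cold-inducible Rbm3 (−0.46). In FID vs. IS females 6 of 99 met it (6.06%, against 6.47% of all genes, 5 of them lower), with Rbm3 (−0.36), Creld2 (−0.27), Fkbp5 (−0.23) and Hspb8 (−0.23) beside Cryab and Ddit3. In FIDch vs. IS females 5 of 99 met it (5.05%, against 8.98% of all genes), among them Hspb11 (0.33), Cryab (0.39), Bag2 (0.21) and Tomm70 (−0.30). Over the 4 female groups 4 of 99 passed the adjusted p (edgeR), against 5.34% of all genes, and these were Ddit3 (adjusted p = 0.00298), Cryab (0.0203), Tomm70 (0.0246) and Dnajb5 (0.0309).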

How the data were processed

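Hippocampal RNA-seq counts of 32 rats (16 male, 16 female, 4 per diet and sex) were used. Per the labels and the study's methods, RNA was isolated with RNAqueous, libraries were made with the TruSeq RNA v2 kit, which does not mark strand, and the submitters' processing notes name FastQC, Trimmomatic, HISAT2, featureCounts (Subread) and Rnor_6.0. The authors deposited raw counts per gene in a male and a female table, without normalization. Beyond the paper's statement of a single male per litter in its experiments, the sources used here do not say how the replicates relate to litters. The p-values therefore measure the spread between these samples.

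Totals were 3515806 to 9517503 counts per male and 18439999 to 26616318 per female library. The limit for an entry at 0 was taken as 3 counts (95%, counting error only). CPM values used TMM factors. Each pair of groups was fitted apart in R 4.3.3 with edgeR 4.0.16 (filterByExpr, TMM, glmQLFit, glmQLFTest), and so were the 4 groups of a sex and the difference of effects between the sexes. Adjustment was by Benjamini-Hochberg over all genes tested. Correlations used 100000 permutations (Python 3.11.15, numpy 2.4.6). The fits were tested on simulated data. Promoters and copies were matched by symbol to RefSeq (GRCr8), whose build differs from that of the counts. The alternatives were DESeq2 1.42.0, RLE size factors, all genes with at least 1 count, the 4 groups in one fit, a replicate block, the adjusted p as criterion, and each library left out.

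The members and chaperone lists were chosen with earlier results of these data known. By rule the text names the 10 members and, in each comparison, up to 6 listed chaperones with the largest absolute log2 fold change at the criterion. It also names the 5 genes with the highest r with the mean of the inducible members.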

Additional observations from a re-analysis of the deposited data

Results flagged for a closer look

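Over 80 groups of 4 libraries (10 members in 8 groups), a single sample stood far from the other 3 by Dixon's test in 1 group, where chance flags about 1 in 20. Dnajb1 was at 60.04 CPM in male IS replicate 1 and at 52.1 to 53.2 CPM in the other IS males.

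The effect of FID on Hsp90aa1 differed between the male and female tables in the test of the difference, by −1.56 on the log2 scale (female minus male, 4 rats per group, SE 0.53, edgeR adjusted p = 0.451). In males the 4 FID values were above all 4 IS values, and in females the groups overlapped at a level of 9 to 82 counts. The effect of ISch on Dnajb1 differed by 0.27 (SE 0.11, edgeR adjusted p = 0.242), with ISch above IS in all 4 females and the groups overlapping in males. Both met the criterion of the study and neither passed the adjustment over all genes. Sex, batch and counting cannot be told apart in these differences.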

How the results depend on the processing

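Under DESeq2, RLE size factors, all genes with at least 1 count and the fit of 4 groups together, the counts of members at the criterion stayed within 1.5 times. With the adjusted p as criterion, the counts became 0 in males for each of the 3 comparisons with IS, in female ISch vs. IS and FIDch vs. FID, and in the sex differences of FID and ISch. The replicate block gave 0 in place of 1 over the 4 female groups and 1 in place of 0 in the sex difference of FIDch, and changed no other count of members by over 1.5 times. Replicate numbers do not pair the samples here: same-numbered libraries had correlations of −0.14 to 0.22 in males and −0.16 to 0.19 in females, with 3 and 2 of 24 over 0.1. With scaling by library size alone, 1 male pair of members passed the adjusted p in place of 0.

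With a library left out in turn, the counts ranged over 1 to 1 in male FID vs. IS and over the 4 male groups, 1 to 2 in male FIDch vs. IS, 0 to 1 in male ISch vs. IS, 1 to 3 in male FIDch vs. FID, 0 to 1 in female FID vs. IS, 0 to 2 in female FIDch vs. IS and ISch vs. IS, 1 to 4 in female FIDch vs. FID, 0 to 2 over the 4 female groups, and 0 to 2 in each of the 3 sex differences. For Hsp90aa1 in male FIDch vs. FID the log2 fold change stayed between −1.53 and −0.91 and the adjusted p between 1.46e-09 and 0.0389 over all alternatives, and over the 4 male groups the adjusted p was 2.31e-07 to 0.0328. In male FID vs. IS its adjusted p was 0.200033 to 0.9996, and in male FIDch vs. IS 0.0162 to 0.730.

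In females the sign of Hsp90aa1 turned. In FIDch vs. IS it was −0.069 without IS replicate 1, −0.22 without IS replicate 3, −0.010 without IS replicate 4, −0.069 without FIDch replicate 2 and −0.26 without FIDch replicate 4, over a range of −0.26 to 0.89 with a library left out. In ISch vs. IS it was 0.47 without IS replicate 2, over a range of −0.64 to 0.47. Summed with LOC680491 it was 0.15 in FID vs. IS and 0.17 in ISch vs. IS. The cause was not tested. The female libraries are deeper than the male ones, but Hsp90aa1 had only 9 to 82 counts there, and the SE of its log2 fold changes was 0.44 to 0.58, against 0.16 to 0.18 in males. Over all members and other chaperones named, 708 values of single genes under an alternative kept their direction and side of the criterion, 101 no longer met it, 13 newly met it and 8 turned in sign.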
